A study of Mus musculus with 8 samples.

Results

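MAP kinase phosphatases are dual-specificity phosphatases that switch MAP kinases off by removing phosphate from both the threonine and the tyrosine of the activation loop. Expression of 10 of their genes (Dusp1, Dusp2, Dusp4, Dusp5, Dusp6, Dusp7, Dusp8, Dusp10, Dusp14 and Dusp16) was examined in primary mouse calvarial osteoblasts treated with parathyroid hormone (PTH) or vehicle. The genes were picked by symbol among the 47706 entries of the count table, each of these symbols had 1 entry, and all 10 had high enough counts to be tested. RNA was sequenced from 4 cultures treated with PTH for 24 hours and 4 treated with vehicle for 24 hours, after 7 days of differentiation. The cells came from the skullcaps of newborn mice, were serum-starved before treatment and received PTH or PBS as vehicle. The sample names begin with Con, which the labels do not spell out, and they give no strain or genotype for these cultures. The labels also do not say whether the 4 samples of a treatment came from separate cell preparations, so p-values measure the spread between these samples, which may be technical.

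PTH acts on osteoblasts through a receptor that couples mainly to Gs, cyclic AMP and protein kinase A, and also engages Gq and MAP kinase pathways. Several of the phosphatases are immediate-early or feedback genes: their transcription rises with cyclic AMP, growth factors or the very MAP kinases they inactivate. Dusp1, Dusp2, Dusp4 and Dusp5 encode nuclear enzymes, Dusp6 and Dusp7 encode cytoplasmic enzymes that prefer ERK, and Dusp8, Dusp10 and Dusp16 encode enzymes that prefer the stress kinases JNK and p38. Dusp14 encodes a small atypical enzyme without the MAP kinase-binding domain of the others. In bone cells, Dusp1 is a known early response gene of PTH.

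Total counts lay between 33605610 and 56090654 per sample, and 16736 genes passed the filter on low counts. Tnfsf11, which encodes RANKL and served to check the labels, had 0.987 to 1.79 counts per 1000000 (CPM) in the vehicle-treated cultures and 115 to 157 CPM in the PTH-treated ones. Over all genes tested, 3907 were higher and 3762 lower with PTH by edgeR at an adjusted p under 0.05, a split of 50.9% higher among the calls. Upper-quartile scaling, which moved the median log2 fold change of all genes by -0.11, gave 3054 higher and 5216 lower, or 36.9% higher. The labels name adipogenic differentiation where the study's description names osteoblast cultures. The median of 12 osteoblast markers lay between 201 and 334 CPM in the 8 cultures and that of 8 adipocyte markers between 4.51 and 7.08 CPM. Under vehicle Adipoq was at 3.48 ± 0.775 CPM and Pparg at 16.0 ± 1.42 CPM (mean ± SD, n = 4). The adipocyte markers summed to 420 to 487 CPM with vehicle and 437 to 497 CPM with PTH, so some lay far above their median. With vehicle, most of that sum came from markers other than Adipoq and Pparg. The osteoblast markers summed to 76846 to 87934 CPM with vehicle and 73362 to 106142 CPM with PTH. Among osteoblast markers 4 of 12 were lower with PTH, Sp7 the most, and none was higher. Among 7 tested adipocyte markers Pparg alone was called and was lower. The shares called were 33.3% and 14.3%, against 45.8% of all genes tested.

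The DNA before the start of these genes is shown for 3 of them because it holds the letters through which cyclic AMP and serum are known to act on other genes. RefSeq promoter windows (GRCm38.p6, 250 bases before and 50 after the start) were found for 9 of the 10 genes, all but Dusp4. Each gene had 1 window, and other annotated starts were not searched. The windows of Dusp1, Dusp8, Dusp10 and Dusp14 lie inside the GENCODE spans of these genes, whose outermost starts differ from the RefSeq ones. The cyclic AMP response element (CRE) TGACGTCA was present in the windows of Dusp1 and Dusp8, or 2 of 9, against 1.79% of 32851 mouse promoter windows. Its shorter form TGACG, which every full element also contains, was in 5 of 9 (Dusp1, Dusp2, Dusp5, Dusp8 and Dusp16) against 20.8% of windows. The AP-1 letters TGANTCA were in none of the 9, against 7.81%, and the CArG box of serum response elements was in 1, Dusp5, against 1.63%. Both strands were searched, and a match describes the letters only. The mouse windows set beside these genes were not matched for base composition. The 250 upstream bases of the 9 genes held from 56.4% (Dusp6) to 77.2% (Dusp7) G and C. The 250 bases upstream follow 5′ to 3′ on the strand of each gene, with matches to any of these motifs in capitals. They lie at chr17:26508473-26508722 (minus strand) for Dusp1, chr7:142095285-142095534 (minus strand) for Dusp8 and chr19:53528895-53529144 (plus strand) for Dusp5.
Dusp1: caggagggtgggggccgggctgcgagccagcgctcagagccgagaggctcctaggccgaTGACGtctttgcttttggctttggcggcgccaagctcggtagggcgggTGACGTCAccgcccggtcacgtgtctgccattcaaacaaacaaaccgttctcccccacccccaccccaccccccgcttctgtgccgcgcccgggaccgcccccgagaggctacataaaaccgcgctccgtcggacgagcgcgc
Dusp8: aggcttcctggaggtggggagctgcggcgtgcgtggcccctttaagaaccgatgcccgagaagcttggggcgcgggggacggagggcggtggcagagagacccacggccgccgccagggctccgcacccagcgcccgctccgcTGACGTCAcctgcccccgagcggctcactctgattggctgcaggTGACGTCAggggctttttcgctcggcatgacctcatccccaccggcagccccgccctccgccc
Dusp5: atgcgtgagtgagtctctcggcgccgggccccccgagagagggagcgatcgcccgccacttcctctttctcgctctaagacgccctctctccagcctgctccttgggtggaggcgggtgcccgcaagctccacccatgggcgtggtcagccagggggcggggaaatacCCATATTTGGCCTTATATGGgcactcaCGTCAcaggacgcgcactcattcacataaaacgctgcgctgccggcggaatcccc

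The full element of Dusp1 began 143 bases before the start, and a separate short element began 191 bases before it. Dusp8 had 2 full elements, at 107 and 63 bases before the start. Dusp5 had 2 adjacent CArG boxes, at 82 and 72 bases, followed by a short element at 55 bases. The windows of Dusp6, Dusp7, Dusp10 and Dusp14 held none of the 4 motifs. Among those 4, Dusp6, Dusp10 and Dusp14 were higher and Dusp7 was lower with PTH. Of the 3 genes whose sequence is shown, Dusp1 and Dusp5 were higher. Dusp8 was called lower (log2 fold change -0.40), but its treatments overlapped. Its call was kept in 3 of the 8 fits that left out a culture.

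**Figure D1:**
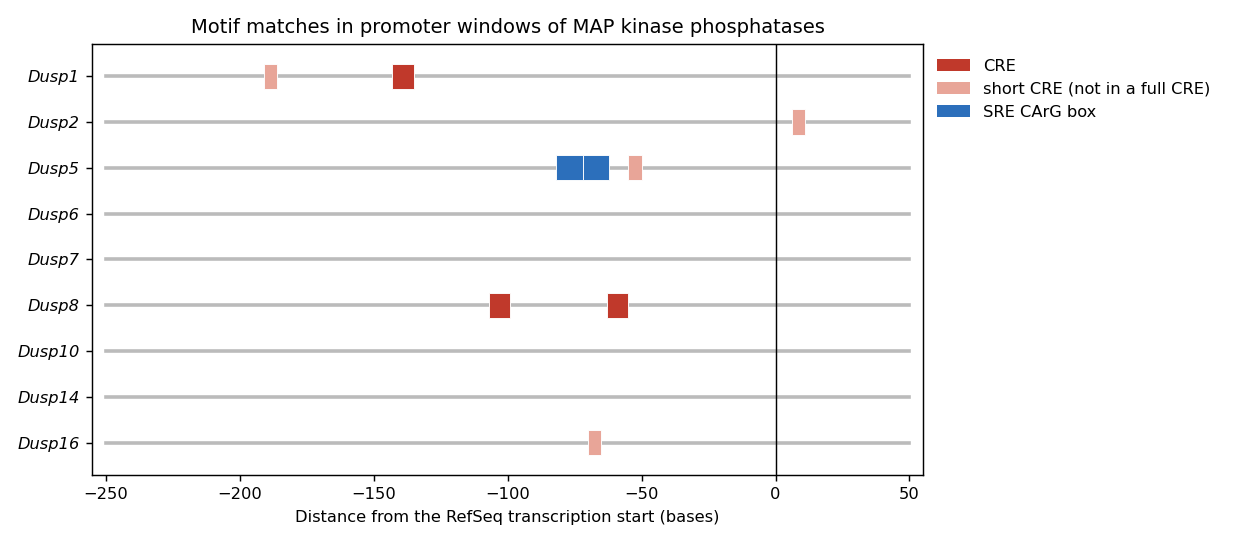
Motif matches in the RefSeq promoter windows of 9 MAP kinase phosphatase genes, plotted by distance in bases from the transcription start (vertical line). Full cyclic AMP response elements occur in Dusp1 and Dusp8, the CArG boxes in Dusp5, and short elements (TGACG) outside a full one in Dusp1, Dusp2, Dusp5 and Dusp16.

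PTH raised 7 of the 10 phosphatase genes and lowered 2. Dusp1, Dusp2, Dusp14 and Dusp10 had the largest increases, between 6.54-fold and 13.7-fold, Dusp5, Dusp6 and Dusp4 rose less, and Dusp7 and Dusp8 were lower. The treatments overlapped for Dusp8, and its call was kept in 3 of the 8 fits that left out a culture. Across all genes tested, 45.8% were called by the same criterion, 23.3% higher and 22.5% lower. DESeq2 also called 7 of the 10 higher and 2 lower, against 37.5% of the genes it tested in either direction. A log2 fold change of at least 1 was reached by 6 genes upward, against 7.36% of all genes, and by 1 gene downward, against 3.88%. A log2 fold change of at least 2 was reached by 4, against 2.98%. The treatments did not overlap in 8 of the 10 genes, against 43.0% of all genes. For each of those 8 the exact permutation test on log2 CPM gave a two-sided p of 0.0286, the smallest that 4 samples against 4 allow. The median log2 fold change of the 10 genes was 1.32, and that of all genes tested was -8.14e-04. These are transcripts of whole cultures, in which fewer cells of a type and less RNA per cell cannot be told apart.

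**Figure D2:**
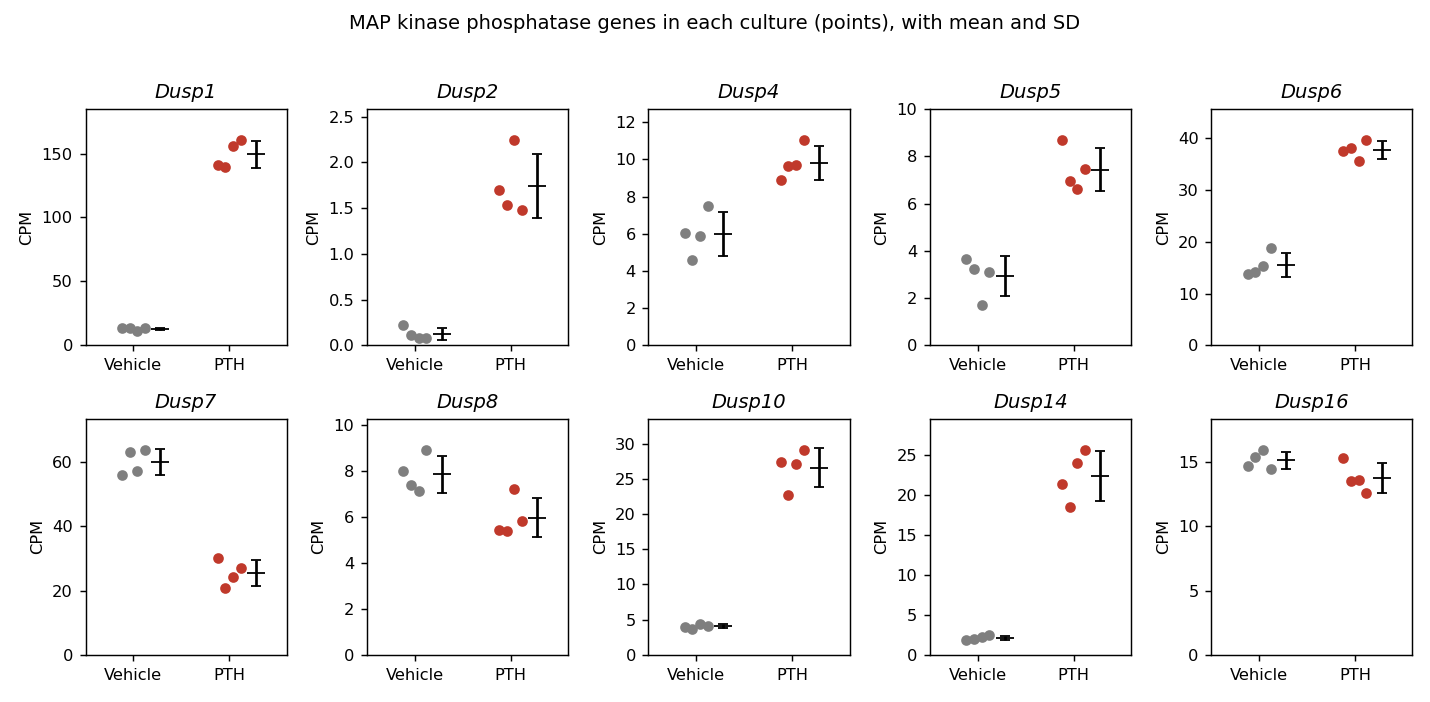
CPM of each phosphatase gene in the 4 vehicle-treated (grey) and 4 PTH-treated (red) cultures, one point per culture, with the mean and SD of each treatment in black. Dusp1, Dusp2, Dusp10 and Dusp14 stand far apart between treatments, and the points of Dusp8 and Dusp16 overlap.

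Among the nuclear enzymes, Dusp1 was the most abundant and changed most in absolute level. Dusp1 inactivates p38 and JNK, and also ERK, and is the prototype of the inducible phosphatases. It lies on chromosome 17 (GRCm38, 26505590 to 26562128, minus strand). Vehicle cultures 1 to 4 had 13.3, 13.3, 11.5 and 13.3 CPM of Dusp1, and PTH cultures 1 to 4 had 141, 140, 156 and 161 CPM. Every PTH-treated culture was thus about an order of magnitude above every vehicle-treated one, and the spread within each treatment was small. This was a log2 fold change of 3.54 (SE 0.0807, edgeR adjusted p = 1.26e-11), or 11.6-fold. Of its 3311 annotated exon bases 11 also belong to Ergic1 on the other strand. The RefSeq window of Dusp1, which lies inside this GENCODE span, is the one with the full element 143 bases from the RefSeq start.

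Dusp2, whose product acts on ERK and p38 and is best known from leukocytes, was near the limit of detection without PTH. Vehicle cultures 1 to 4 had counts of 10, 5, 4 and 4 for Dusp2 (0.223, 0.115, 0.0835 and 0.0806 CPM). PTH cultures 1 to 4 had counts of 87, 51, 86 and 62 (1.70, 1.53, 2.24 and 1.47 CPM). The lowest PTH-treated culture lay above the highest vehicle-treated one, although Dusp2 remained the scarcest of the 10 genes under PTH. Its log2 fold change of 3.77 (SE 0.404, adjusted p = 1.17e-05) was the largest of the family and also the least precise. It lay between 3.60 and 4.19 when each culture was left out in turn. Since Dusp2 is expressed in macrophages, macrophage markers were measured beside it. Of 11 markers 3 (Tyrobp, Lyz2 and Cd14) were higher with PTH and 0 lower. The share called was 27.3%, against 45.8% of all genes. The summed level of the 11 was 1086 to 1763 CPM with vehicle and 1698 to 2181 CPM with PTH, and none of the 11 was at 0. The largest log2 fold change among them was 0.86, for Tyrobp (adjusted p = 0.00133). Their part in the change of Dusp2 was not tested.

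The other nuclear genes rose less. Dusp5, an ERK-specific enzyme and a feedback target of ERK, had 3.66, 3.21, 1.69 and 3.12 CPM in vehicle cultures 1 to 4 and 8.70, 6.95, 6.63 and 7.49 CPM in PTH cultures 1 to 4. Vehicle culture 3 was the lowest, and the treatments did not overlap. Dusp5 changed by a log2 of 1.35 (SE 0.212, adjusted p = 2.60e-04). An antisense transcript shares 547 of its 2473 exon bases, and whether the counting used strand is not given in the sources used here. Within those shared bases, reads of Dusp5 and of that transcript therefore cannot be told apart.

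Dusp4, which acts on ERK, JNK and p38, had the smallest increase of the 7. It stood at 6.05, 4.59, 5.86 and 7.50 CPM in vehicle cultures 1 to 4 and at 8.90, 9.63, 9.68 and 11.1 CPM in PTH cultures 1 to 4. The gap between the highest vehicle-treated and the lowest PTH-treated culture was narrow. Its log2 fold change was 0.71 (SE 0.147, adjusted p = 0.00189), or 1.63-fold, and it stayed between 0.59 and 0.83 with each culture left out.

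The cytoplasmic ERK phosphatases moved in opposite directions. Dusp6, the classical feedback inhibitor of ERK, rose, while its close relative Dusp7 fell. Dusp6 had 13.9, 14.2, 15.3 and 18.8 CPM in vehicle cultures 1 to 4, and 37.6, 38.1, 35.6 and 39.7 CPM in PTH cultures 1 to 4. For Dusp7 the vehicle cultures had 56.0, 63.3, 57.2 and 63.9 CPM and the PTH cultures 30.1, 20.8, 24.2 and 27.1 CPM. Neither gene overlapped between treatments. On the log2 scale the change was 1.28 for Dusp6 (SE 0.0988, adjusted p = 6.03e-07), or 2.43-fold, and -1.23 for Dusp7 (SE 0.105, adjusted p = 1.46e-06), or 2.35-fold lower with PTH. Within a culture, the level of Dusp6 per kilobase of transcript divided by that of Dusp7 was 0.258 to 0.338 with vehicle and 1.44 to 2.10 with PTH. By the longest transcript, Dusp6 was the less abundant of the pair in all 4 vehicle-treated cultures and the more abundant in all 4 PTH-treated cultures. By the mean transcript length this order did not hold in PTH culture 1, where Dusp6 had 22.1 and Dusp7 23.3 CPM per kb. This ratio was chosen after the values were seen.

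The phosphatases of JNK and p38 did not move as a group. Dusp10, which acts on both kinases and lies on chromosome 1 (184013302 to 184075636, plus strand), had 4.02, 3.72, 4.42 and 4.09 CPM in vehicle cultures 1 to 4 and 27.3, 22.7, 27.1 and 29.1 CPM in PTH cultures 1 to 4. Its log2 fold change was 2.71 (SE 0.105, adjusted p = 1.10e-09), or 6.54-fold, and no culture of either treatment came near the other treatment. Dusp8, at home mainly in brain, heart and muscle, had 8.01, 7.39, 7.16 and 8.95 CPM with vehicle and 5.42, 5.42, 7.23 and 5.85 CPM with PTH. PTH culture 3 lay within the vehicle range (exact permutation test, two-sided p = 0.0571). The log2 fold change of Dusp8 was -0.40 (SE 0.134, adjusted p = 0.0282), and the call was lost in 5 of the 8 fits that left out a culture. These were the fits without PTH culture 1 (adjusted p = 0.0613), PTH culture 2 (0.0645), PTH culture 4 (0.0604), vehicle culture 1 (0.0567) and vehicle culture 4 (0.0842). A fit that took the number of each culture as a replicate block gave 0.0527.

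Dusp16, a phosphatase of JNK and p38 that shuttles between cytoplasm and nucleus, was the 1 gene that did not pass the test. It stood at 14.7, 15.4, 16.0 and 14.5 CPM in vehicle cultures 1 to 4 and at 15.4, 13.6, 13.6 and 12.6 CPM in PTH cultures 1 to 4, with overlapping ranges. Dusp16 had a log2 fold change of -0.14 (SE 0.0880, adjusted p = 0.233; exact permutation test, two-sided p = 0.0857). Under upper-quartile scaling, which lowers all log2 fold changes, Dusp16 was called lower (log2 fold change -0.25, adjusted p = 0.0299). Dusp10 and Dusp16 changed places in level: per kilobase, Dusp10 was at 0.442 to 0.516 of Dusp16 with vehicle and at 3.06 to 4.24 times Dusp16 with PTH, a ratio also chosen after the values were seen.

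Dusp14, the atypical member, dephosphorylates MAP kinases in test systems and is known as a negative regulator of T cell receptor signaling. On chromosome 11 (84048041 to 84069261, minus strand), it was among the scarcer genes with vehicle, at 1.85, 1.93, 2.29 and 2.44 CPM in cultures 1 to 4. With PTH it reached 21.4, 18.6, 24.0 and 25.7 CPM. Its lowest PTH value was far above its highest vehicle value. The log2 fold change of Dusp14 was 3.39 (SE 0.138, adjusted p = 1.87e-09), or 10.5-fold, and it ranged from 3.32 to 3.48 with each culture left out.

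**Figure D3:**
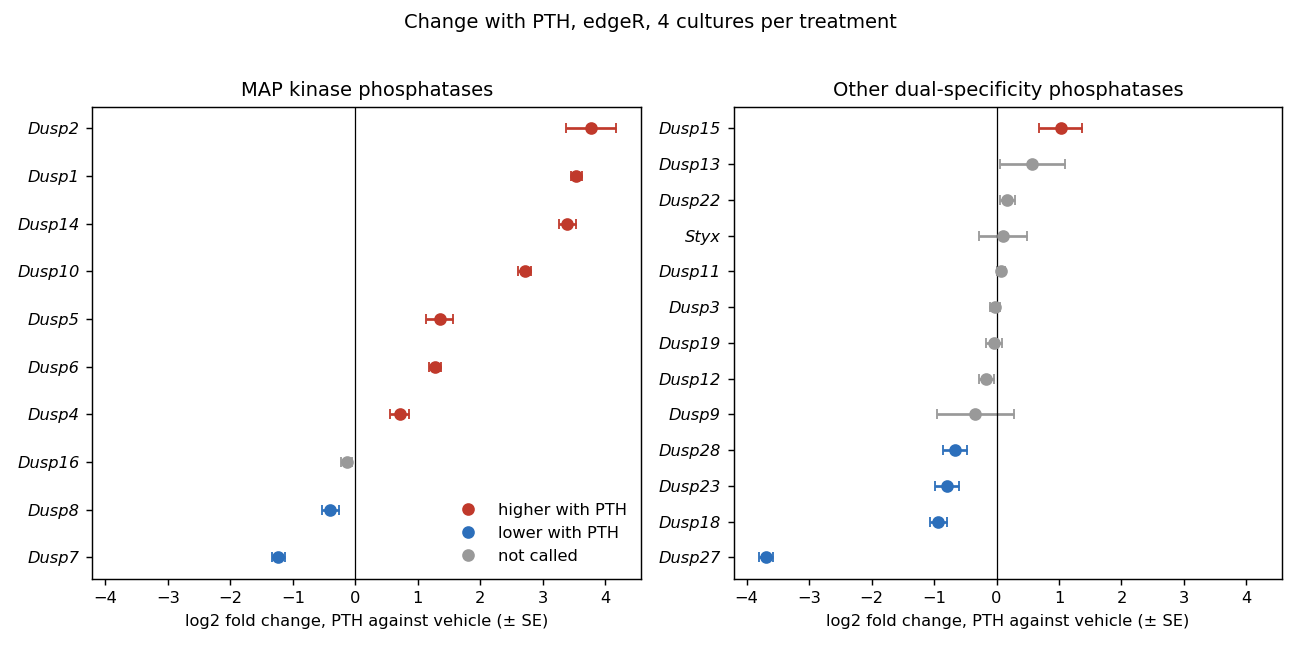
Log2 fold change of PTH against vehicle (edgeR, points with SE bars, 4 cultures per treatment) for the 10 MAP kinase phosphatase genes on the left and 13 other tested dual-specificity phosphatase genes on the right. Red genes were higher, blue genes lower and grey genes not called. On the left 7 genes are red and 2 blue, and on the right 1 is red and 4 are blue.

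Because the transcripts differ in length, levels were compared between genes as CPM per kilobase of the longest annotated transcript. With vehicle, Dusp7 was the most abundant of the 10 at 18.7 ± 1.27 CPM per kb (SD, n = 4), followed by Dusp6 (5.56 ± 0.812) and Dusp1 (5.56 ± 0.384), which overlapped. Dusp16 came next at 2.97 ± 0.133, and then Dusp4, Dusp8, Dusp10, Dusp14 and Dusp5, each overlapping its neighbour in the order. Dusp2 was last at 0.0776 ± 0.0414 CPM per kb and did not overlap Dusp5.

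With PTH, Dusp1 led at 64.6 ± 4.58 CPM per kb, above all other members in every culture. Dusp14 (14.3 ± 1.99) and Dusp6 (13.5 ± 0.608) came next and overlapped, and Dusp10 (9.52 ± 0.978) overlapped Dusp7 (7.96 ± 1.23). Dusp4 (3.58 ± 0.329), Dusp5 (3.01 ± 0.368) and Dusp16 (2.70 ± 0.226) followed, each overlapping the next. Dusp8 (1.24 ± 0.179) and Dusp2 (1.07 ± 0.217) were the lowest and overlapped. With the mean length of a gene's transcripts in place of the longest, Dusp7 led with vehicle and Dusp1 with PTH as before, while Dusp7 (19.8 ± 3.07 CPM per kb) lay above Dusp14 (17.9 ± 2.49) and Dusp10 (15.1 ± 1.55) with PTH.

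The summed level of the family was 40.7 ± 2.45 CPM per kb with vehicle and 121 ± 8.11 CPM per kb with PTH, 2.98 times as high. Dusp7 made up 44.6% to 48.4% of that sum in the vehicle-treated cultures and 5.81% to 7.86% in the PTH-treated ones. Dusp1 went the other way, from 12.8% to 14.7% of the sum with vehicle to between 51.2% and 54.2% with PTH. By class, the nuclear enzymes held 20.2% to 24.5% of the sum with vehicle and 57.8% to 60.7% with PTH, and the cytoplasmic ERK enzymes 57.2% to 60.9% and 16.3% to 19.1%. The sum thus passed from mostly transcripts of cytoplasmic enzymes to mostly those of nuclear enzymes. Dusp7 was the largest single part with vehicle and Dusp1 with PTH. The nuclear genes did not gain share as a group. The mean share of Dusp1 rose from 13.7% to 53.2% and that of Dusp2 from 0.193% to 0.886%. Those of Dusp4 (5.37% to 2.95%) and Dusp5 (2.90% to 2.49%) fell. Dusp6 went from a mean share of 13.6% to 11.1%, although its level rose. The JNK and p38 enzymes held 14.0% to 16.0% with vehicle and 10.7% to 11.7% with PTH. These shares follow from the changes of the single genes and were not tested.

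**Figure D4:**
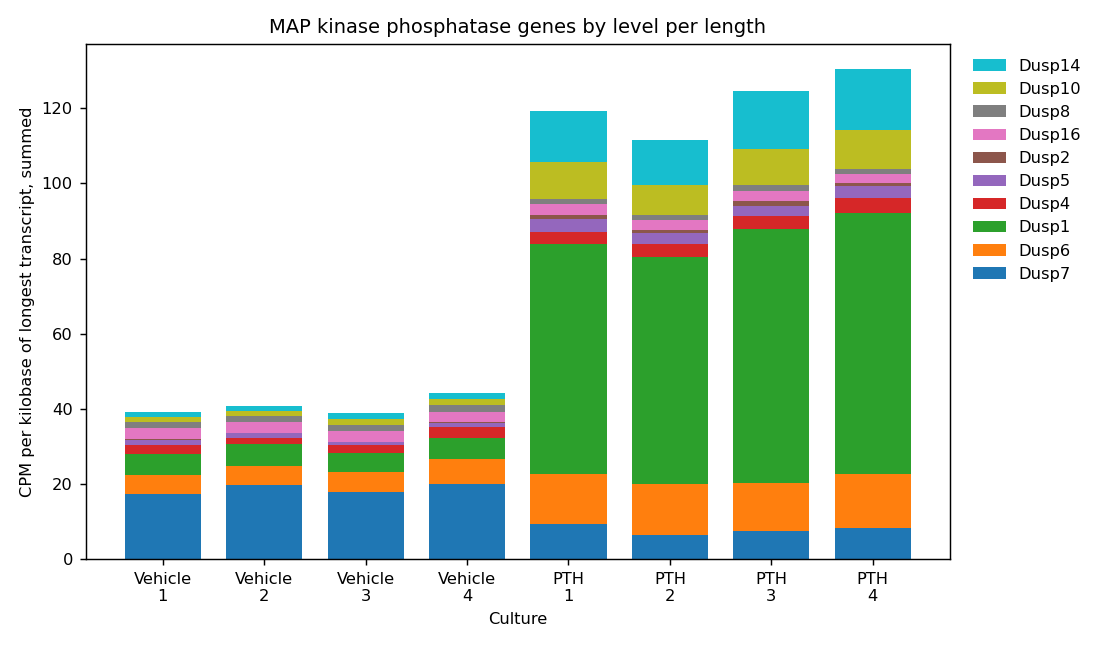
Stacked level of the 10 MAP kinase phosphatase genes in each culture, in CPM per kilobase of the longest transcript. The 4 PTH-treated bars reach 111 to 131 and the 4 vehicle-treated bars 38.8 to 44.1, with Dusp7 the largest part of each vehicle bar and Dusp1 of each PTH bar.

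Of 16 other dual-specificity phosphatase genes 13 were tested, 1 was higher and 4 were lower. The share called was 38.5%, near the 45.8% of all genes, and the median log2 fold change of the 13 was -0.04. Dusp27, an inactive relative found mainly in muscle, had the largest decrease of any phosphatase gene listed here, with 19.5 ± 0.781 CPM in vehicle-treated and 1.51 ± 0.174 CPM in PTH-treated cultures (log2 fold change -3.69, adjusted p = 1.50e-10). Dusp18, Dusp23 and Dusp28 were lower by less, with log2 fold changes of -0.93, -0.79 and -0.66. Dusp15 was higher (0.743 ± 0.291 CPM with vehicle, 1.51 ± 0.383 CPM with PTH; log2 fold change 1.03, adjusted p = 0.0277), but not in the fits without PTH culture 1, PTH culture 4, vehicle culture 2 or vehicle culture 3. Dusp3, an abundant atypical enzyme that also acts on ERK and JNK, stood at 25.3 ± 2.08 CPM without PTH and at 24.7 ± 0.914 CPM with it (adjusted p = 0.783). The X-linked MAP kinase phosphatase Dusp9 was scarce, with at most 33 counts in a culture, and was not called.

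Phosphatases of other families that act on MAP kinases gave 2 genes higher and 1 lower of 8 tested, a share of 37.5% called against 45.8% of all genes. Their median log2 fold change was -0.05. The largest changes were those of Ppm1b, a serine/threonine phosphatase (log2 fold change 0.48, adjusted p = 4.10e-05), and Ppp2cb, a catalytic subunit of protein phosphatase 2A (-0.39, adjusted p = 9.05e-04). Ppp2ca, which encodes the alternative catalytic subunit, was higher by 0.35 on the log2 scale (adjusted p = 0.00180).

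The kinases that these phosphatases act on, and the kinases above them, showed mixed and mostly modest changes. Of 13 tested genes of the ERK cascade 5 were higher and 4 were lower, with a median log2 fold change of 0.13. The share called was 69.2%, against 45.8% of all genes. Mapk3, which encodes an ERK, was slightly lower (104 ± 3.36 CPM with vehicle, 89.5 ± 4.93 CPM with PTH; log2 fold change -0.21, adjusted p = 0.0145). Mapk7, which encodes ERK5, had the largest decrease (log2 fold change -1.02, adjusted p = 1.75e-07). Mapk4, which encodes an atypical MAP kinase, had the largest fitted increase (adjusted p = 5.30e-05). That rests on counts of 0 to 4 per vehicle-treated culture and 29 to 92 per PTH-treated culture.

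Of 22 genes of the JNK and p38 cascades 7 were higher and 5 lower, with a median of -0.0015. The share called was 54.5%, against 45.8% of all genes. Map3k13, an upstream kinase of JNK, rose from 1.77 ± 0.258 to 8.84 ± 0.321 CPM (log2 fold change 2.32), and Map3k12, a closely related kinase, was lower by a log2 fold change of -1.03. Mapk14, the main p38 gene, was slightly lower (log2 fold change -0.19, adjusted p = 0.0195), and Mapk8, which encodes a JNK, was slightly higher (0.35, adjusted p = 0.00191). Among 22 Ras proteins, regulators and scaffolds 5 were higher and 6 were lower, led by the exchange factor Rasgrp1 (-1.36). Their median was -0.02, and the share called was 50%. Of 15 kinases and factors activated by MAP kinases 5 were higher and 5 were lower, a share of 66.7% called, with a median of -0.0089. Mapkapk3 (1.05), a target of p38, led the higher genes, and the serum response factor gene Srf (-1.14) led the lower ones.

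Transcripts often read as outputs of these pathways were mixed among ERK feedback genes and mostly higher among immediate-early genes. Of 12 Sprouty, Spred and ETS genes and their neighbours in ERK feedback 5 were higher and 5 lower, with a median of -0.07. The share called was 83.3%, against 45.8% of all genes. Directions also differed within families. Spry1 (log2 fold change -0.83) and Spred1 (-0.43) were lower, while Spry2 (1.61), Spry3 (2.17), Spry4 (0.56) and Spred2 (0.91) were higher. Phlda1 had the largest increase, from 7.27 ± 0.432 to 129 ± 9.84 CPM (log2 fold change 4.14), and Il17rd, a membrane inhibitor of FGF signaling, the largest decrease (-2.15). Of 19 immediate-early genes 15 were higher and 1 was lower, with a median of 1.41. The share called was 84.2%, and among all genes 23.3% were higher and 22.5% lower. Nr4a3 had the largest increase, from 2.46 ± 0.481 to 345 ± 20.9 CPM (log2 fold change 7.13), and Egr3 was lower (-1.28, adjusted p = 0.00217). Fos and Egr1 were among the higher genes, and Egr2 was not called.

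**Figure D5:**
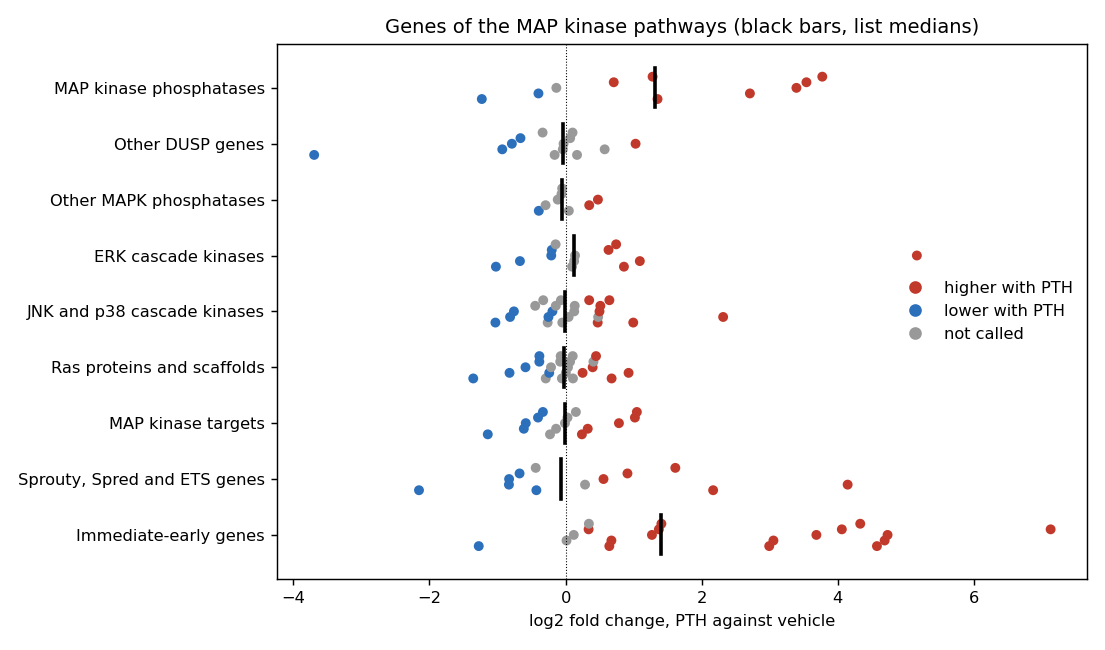
Log2 fold change of PTH against vehicle for every tested gene of the MAP kinase lists, one point per gene, with the list median as a black bar. Red points were higher, blue points lower and grey points not called. The median is 1.32 for the 10 phosphatase genes and 1.41 for the immediate-early genes, and the other medians lie between -0.07 and 0.13. The far right point of the ERK cascade is Mapk4, whose fitted value rests on low counts.

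The patterns of the largest increase and the largest decrease of the family were also compared with every gene of at least 1 CPM. Over the 8 cultures, the log2(CPM + 0.1) of Dusp2 correlated most with that of Csrp2 (Pearson's r = 0.997), Dip2b (0.996) and March3 (0.995), among 14058 genes compared, 17 of which exceeded 0.99. With vehicle Dusp2 had 4 to 10 counts, or 0.0806 to 0.223 CPM, near the 0.1 added. The order of its closest genes therefore rests on few counts. For Dusp7 the closest were Wipi1 (0.997), Wdr1 (0.996) and Nde1 (0.995), with 42 of 14057 genes above 0.99. The 8 points are 4 of each treatment, and the genes of a pair share libraries and depth.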

How the data were processed

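RNA was sequenced from 8 mouse osteoblast cultures (4 PTH, 4 vehicle), grouped by their titles. Per the labels and the methods, the authors aligned poly(A) libraries to GRCm38 (mm10) with HISAT2 and assembled transcripts with StringTie. The authors deposited raw counts per gene, made by StringTie's companion script from transcript coverage, not normalized. That script assumes a read length, and the length set, the annotation release and the strand setting are not given in the sources used here. Total counts lay between 33605610 and 56090654, and precision is lowest for genes with low counts.

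Genes were tested with edgeR 4.0.16 in R 4.3.3 (filterByExpr with a minimum count of 10 and total of 15, TMM, two-sided quasi-likelihood F-test, Benjamini-Hochberg over 16736 genes) and called at an adjusted p under 0.05. The authors used DESeq2, and DESeq2 1.42.0 was an alternative, as were its size factors, upper-quartile scaling (chosen after the data were seen), no filter, the sample number as a block, each sample left out, halved counts, counts summed by symbol and a minimum log2 fold change of 1. CPM values use TMM library sizes. Exact permutation tests used log2(CPM + 0.1) over 70 assignments. Positions and lengths come from GENCODE M21, promoters from RefSeq, and near-identical transcripts (150 bases at 95% identity) were searched with blastn 2.17.0. Besides the antisense transcript of Dusp5 none was found. On simulated counts for 16736 genes (PTH against vehicle), edgeR recovered 71 of 100 genes changed by a log2 of 1 and 91 of 100 changed by 2, with 7 false calls. DESeq2 recovered 75 and 91, with 29 false calls. No other genes were changed in the simulation, whereas 45.8% of genes were called in the data, so these figures may not carry over.

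The members and gene lists were chosen with earlier results of these data known. Named genes are the 10 members, the largest called increase and decrease of each other list, the check genes, and the 3 genes most correlated with the members of largest increase and decrease. Some genes under this rule are not reported here. Others named were chosen after their values were seen. Of 5 endothelial markers, which summed to 5.66 to 6.97 CPM, 1 (Kdr) was higher and 1 (Tek) lower. That was 50% of the 4 tested, against 45.8% of all genes. Of 7 PTH response genes 6 were higher, led by Il6, and Pth1r was lower, a share of 100% called.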

Additional observations from a re-analysis of the deposited data

Results flagged for a closer look

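Dusp1 in vehicle culture 3 had 11.5 CPM and stood apart from the other 3 vehicle-treated cultures, which agreed closely: its gap to the nearest was 0.958 of the range of the group, above Dixon's critical value at the 95% level. It was the only one of 34 groups of 4 examined (the 10 genes, their summed level, shares and ratios, in each treatment) to do so, and chance gives about 1 in 20. The log2 fold change of Dusp1 lay between 3.49 and 3.58 with each culture left out.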

How the results depend on the processing

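The 7 genes higher with PTH were called in the same direction by every alternative test, scaling, filter and left-out culture, and 6 were left when calls also needed a log2 change of 1 or more, which Dusp4 did not reach. The number of genes lower with PTH was 2, and it was 1 with that minimum change, 1 with the sample number as a replicate block, and between 1 and 2 with each culture left out. The difference was Dusp8 (log2 fold change -0.40 with the block, adjusted p = 0.0527, and -0.51 to -0.33 over the fits with another tool, scaling, filter or set of cultures). The cause was not tested. The pairing of sample numbers was checked: after removal of treatment means, same-numbered cultures correlated at -0.041 to 0.027 across genes and others at -0.068 to 0.058. These values cannot tell whether same-numbered cultures came from 1 cell preparation, which the labels do not say. The block gave 3571 genes higher and 3432 lower. Over all genes, the fold-change minimum left 1232 higher and 650 lower. Upper-quartile scaling called 3 phosphatase genes lower, Dusp16 included, and changed 4 of the counts of the other lists by over 1.5 times: 8 JNK and p38 kinases lower, 3 Ras proteins and scaffolds higher, 3 MAP kinase targets higher and 2 other MAP kinase phosphatases lower. Without the filter 3 MAP kinase targets were higher. Levels per kilobase moved with the mean transcript length for 8 of the 10 genes. Depth limits Dusp2 most, with counts of 4 to 10 per vehicle-treated culture.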
